A study of Mus musculus with 22 samples.

Results

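The antioxidant and glutathione enzyme genes described here are 51 mouse genes, defined by gene symbol. They are the glutathione peroxidases (Gpx), the glutathione S-transferases of the alpha, mu, omega, pi and theta classes (Gsta, Gstm, Gsto, Gstp and Gstt), the peroxiredoxins (Prdx), the superoxide dismutases (Sod), the thioredoxins and thioredoxin reductases (Txn and Txnrd), catalase (Cat) and 4 enzymes of glutathione synthesis and recycling (Gclc, Gclm, Gss and Gsr). The symbol rule matched 59 of the 55335 genes in the table, and 8 of them with pseudogene symbols were left out. The rule also took in Txnl4a and Txnl4b, which encode spliceosome proteins with a thioredoxin fold and not antioxidant enzymes. The study asked what the histone variant H2A.Z does in preimplantation embryos, and its RNA-seq libraries compared H2A.Z knockdown (KD) with control B6D2F1 embryos. For KD, zygotes were injected with about 10 pL of a mixture of siRNAs against H2A.Z at 20 µM. Each of the 22 libraries pooled 15 embryos and was made with Smart-seq2, which amplifies polyA RNA, with 16 to 18 cycles of preamplification.

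There were 4 control libraries (replicates 1, 2, 4 and 5) and 3 KD libraries (replicates 1, 2 and 4) of 2-cell embryos, a stage that the study's methods place at up to 44 h after hCG. Morulae, at 78 h, gave 4 control libraries (replicates 1, 2, 7 and 8) and 3 KD libraries (replicates 1, 2 and 6). Blastocysts, at 94 h, gave 4 control and 4 KD libraries, each numbered 1, 4, 5 and 6. The study reports that far fewer KD than control embryos formed blastocysts, while development up to the morula was unaffected. How KD embryos were picked for the blastocyst libraries is not stated. In blastocysts, a KD effect within the stage therefore cannot be told apart from delayed or arrested development. All embryos were fertilized in vivo, came from superovulated 8-week-old B6D2F1 females mated with B6D2F1 males, and were cultured in the same medium. The study's methods call the controls of its quantitative PCR noninjected and do not say whether the control embryos of the RNA-seq libraries were injected, so an effect of the injection cannot be told apart from the loss of H2A.Z. The study's methods state at least 3 repeats for every experiment other than its ChIP-seq, but which libraries came from which batch of embryos is not given in the sources used here, and p-values measure the spread between these libraries only.

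Cells make superoxide and hydrogen peroxide during respiration. Superoxide dismutases turn superoxide into hydrogen peroxide, which catalase, peroxiredoxins and glutathione peroxidases remove; the peroxiredoxins are reduced again mostly through thioredoxin and thioredoxin reductase, and the glutathione peroxidases through glutathione, which glutathione reductase recycles. The oocyte stores much glutathione, and glutathione S-transferases join it to reactive molecules.

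The values were FPKM, in which fragments are divided by transcript length and by library total, so that levels can be compared between genes. The depth in reads is unknown, since the table holds no counts and whole reads could not be recovered from its low values. Each library had between 10143 and 12090 genes at 1 FPKM or more. Differences were tested with limma on log2(FPKM + 1) over all genes with at least 1 FPKM in at least 3 libraries of the comparison, and a gene was past the test at an adjusted p under 0.05. A gene was also called a DEG when its log2 fold change was above 1 or below -1. All log2 fold changes are on this scale, which understates the change of low genes.

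H2afz, the gene of H2A.Z and the target of the KD, was at 1244, 1236, 905 and 1178 FPKM in the control 2-cell libraries and at 415, 139 and 112 FPKM in the KD libraries. The groups did not overlap, KD replicate 1 stood above the other KD libraries, and the log2 fold change of -2.53 (SE 0.38) was not past the test (adjusted p 0.543). Without that library it was -3.12 with an adjusted p of 0.000907. In morulae H2afz was at 1158, 1336, 1511 and 1421 FPKM in control and at 30.3, 25.7 and 29.0 FPKM in KD libraries, a log2 fold change of -5.41 (SE 0.17, adjusted p 9.71e-08). In blastocysts it was at 2656, 2431, 1945 and 2055 FPKM in control and at 64.2, 67.2, 53.2 and 57.6 FPKM in KD libraries, a log2 fold change of -5.19 (SE 0.20, adjusted p 3.63e-08). Every library carried the level its label called for. H2afv, which encodes the other H2A.Z protein, was lower as well in KD morulae (log2 fold change -2.93, adjusted p 2.93e-06) and KD blastocysts (log2 fold change -1.86, adjusted p 7.95e-05).

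The stage labels were checked against marker genes. The 6 of 7 listed 2-cell markers found in the table summed to between 248 and 367 FPKM in control 2-cell embryos and to between 5.83 and 19.8 FPKM in control morulae. The 7 trophectoderm markers summed to between 990 and 1477 FPKM in control blastocysts, with Krt18 the most abundant, and to between 109 and 147 FPKM in control morulae. The 12 markers of cumulus and granulosa cells summed to at most 3.72 FPKM in any library, with Tnfaip6 the most abundant in 2-cell embryos and Star later; between 5 and 9 of the 12 were listed at 0 throughout each group. The 5 oocyte markers summed to between 743 and 1041 FPKM in the 2-cell libraries, led by Oosp1, and to at most 11.0 FPKM in later libraries.

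The members together reached 1249 ± 107 FPKM (SD, n = 4) in control 2-cell embryos, 2977 ± 132 FPKM (SD, n = 4) in control morulae and 5881 ± 168 FPKM (SD, n = 4) in control blastocysts. In KD embryos the sums were 1232 ± 117 FPKM (SD, n = 3), 3484 ± 390 FPKM (SD, n = 3) and 5233 ± 449 FPKM (SD, n = 4) at the same stages. All sums use FPKM as deposited, whose total per library also differed between groups. The median total was 443493, 591607 and 665178 FPKM in control 2-cell embryos, morulae and blastocysts. In KD it was 457386, 615745 and 628463 FPKM. Of the 51 members, 43 had a mean of at least 1 FPKM in some group and 14 a mean of at least 100 FPKM. The most abundant member was Prdx2 in 2-cell embryos, Gsto1 in morulae and Prdx1 in control blastocysts, while in KD blastocysts it was Gsto1. The 8 members below 1 FPKM in the mean of every group were Gpx8, Gstm3, Gstt1, Gstt3, Gstt4, Prdx6b, Sod3 and Txnrd3. They passed the filter in no comparison, and each of the 43 others was tested in at least 1. Sod3, the extracellular superoxide dismutase, was listed at 0 in 21 of the 22 libraries.

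The KD and control groups of each stage were compared to ask which genes differed after KD, and the control groups of successive stages to follow normal development. At the 2-cell stage limma called 0 of 29 tested members, beside 0% of 12160 genes higher and 0% lower. At an unadjusted p under 0.05 there was 1 of 29 members, Gclc, beside 701 of 12160 genes. The median log2 fold change was 0.00 for the members and 0.00 for all genes. H2afz itself did not pass this test, so the count of 0 does not show that the members were alike in both groups.

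In morulae 3 of 31 tested members were higher in KD, beside 4.23% of 10989 genes, and 4 were lower, beside 9.04%. DEGs were 1 higher member, Gpx2 (0.992% of genes), and 1 lower member, the spliceosome gene Txnl4b (2.53% of genes). The median log2 fold change was 0.26 for the members and 0.02 for all genes tested. The called members were 9.68% (higher) and 12.9% (lower) of those tested, which rests on 3 and 4 genes. The 1458 calls over all genes fell to 579 without KD replicate 1, 551 without KD replicate 2, 910 without control replicate 7 and 855 without control replicate 8, while the members called numbered 5 or 6 in each of these 4 fits. Higher genes made up 31.9% of all calls, and 15.3% when the FPKM were used as deposited without scaling between libraries, which moved the median of all genes from 0.02 to -0.09.

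In blastocysts 7 of 40 tested members were higher in KD, beside 16.7% of 11828 genes, and 13 were lower, beside 19.8%. The called members were 17.5% of those tested for higher, near the background, and 32.5% for lower. They include the spliceosome genes Txnl4a (higher) and Txnl4b (lower). DEGs were 2 higher members (6.06% of genes) and 6 lower members (7.69% of genes). The median log2 fold change was -0.14 for the members and 0.00 for all genes. Of the 7 members past the test in morulae and the 20 in blastocysts, comparisons that share no library, 4 were in both lists, with Gclm higher and Gstm4, Gstp1 and Txnl4b lower at both stages. This was 57.1% of the morula list and 20% of the blastocyst list, near the shares over all genes, where the 819 genes in both lists were 56.2% of the 1458 called in morulae and 19.0% of the 4321 called in blastocysts.

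In control embryos 27 of 37 tested members rose from the 2-cell stage to the morula, beside 43.0% of 13655 genes, and 9 fell, beside 40.3%. The median log2 fold change was 1.50 for the members and 0.10 for all genes. From control morulae to control blastocysts 25 of 39 tested members rose, beside 27.6% of 11849 genes, and 3 fell, beside 28.8%. The median log2 fold change was 0.84 for the members and -0.02 for all genes. Many members passed the filter only through the stage where they are high, so these counts describe the members and test nothing about them as a group. The blastocyst comparisons with KD and with control morulae share the 4 control blastocyst libraries, and the comparisons of control morulae with KD morulae and with 2-cell embryos share the 4 control morula libraries.

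**Figure D1:**
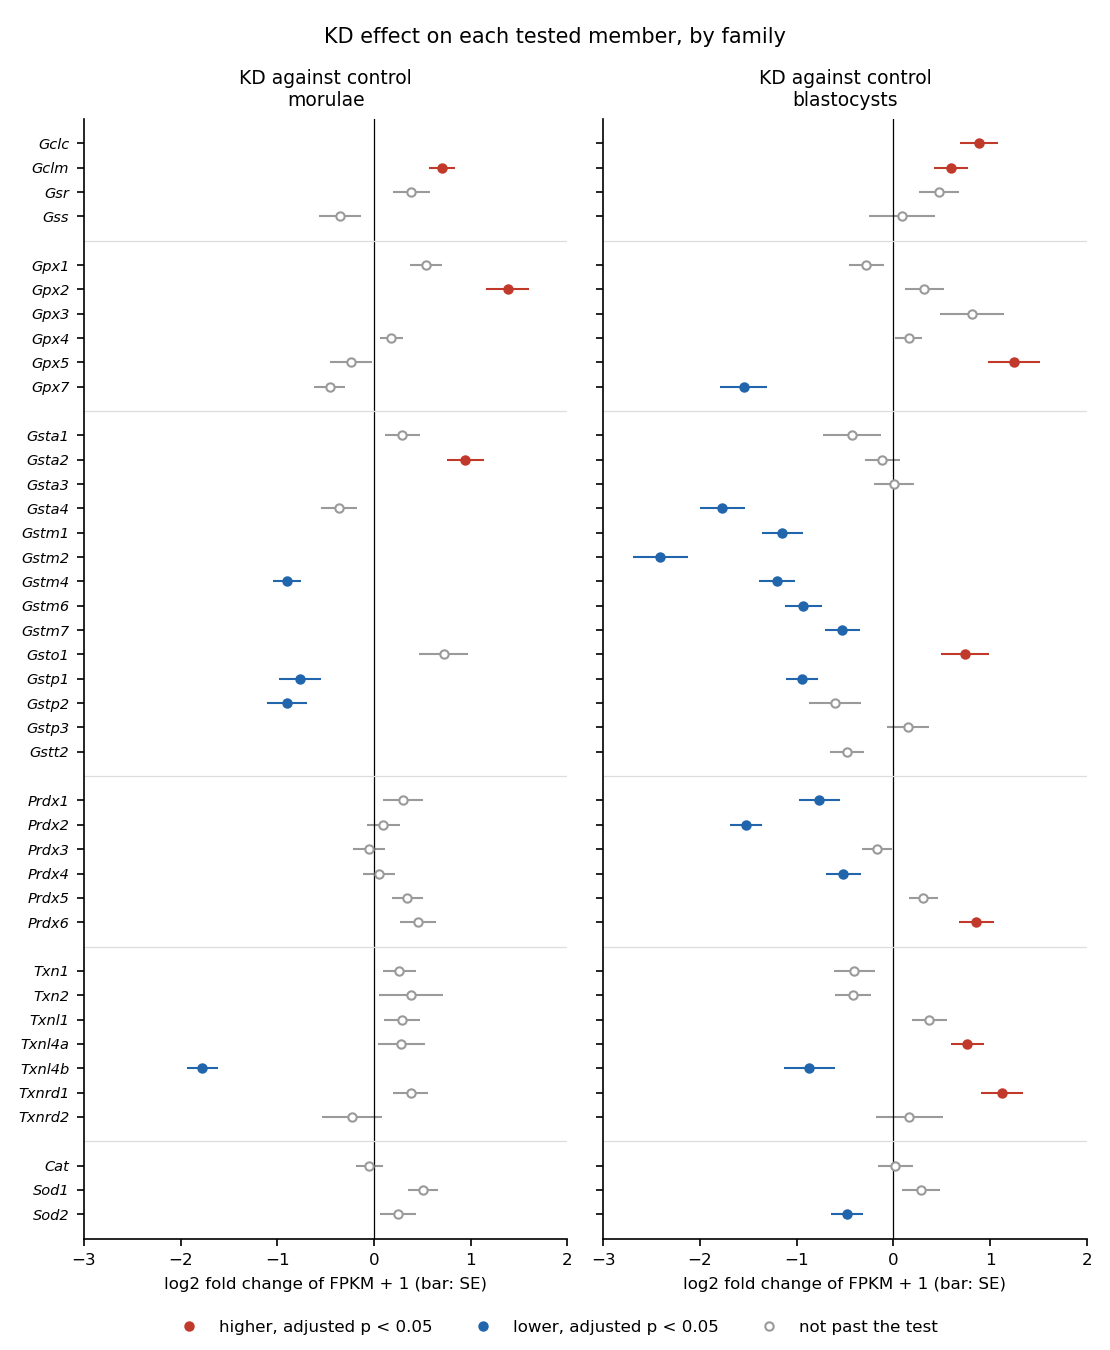
Log2 fold change of FPKM + 1 between KD and control for each tested member (x axis), grouped by family, in morulae and in blastocysts, with bars for the SE. Filled points passed the test at an adjusted p under 0.05, which 7 members did in morulae and 20 in blastocysts.

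Glutathione is made by glutamate-cysteine ligase, whose catalytic subunit is Gclc and whose modifier subunit is Gclm, and by glutathione synthetase, Gss. Gclc was at 0.557, 0.498, 0.366 and 0.727 FPKM in control blastocysts and at 2.18, 2.11, 0.998 and 2.22 FPKM in KD blastocysts. KD and control ranges were apart, and KD replicate 5 was the lowest of the KD libraries, with a log2 fold change of 0.88 (SE 0.20, adjusted p 0.00445). Gclc passed the filter only through KD replicates 1, 4 and 6 and was not tested when 1 of these was left out. It kept its call in the 10 alternative fits that tested it, among them that without the filter (adjusted p 0.0319). In control 2-cell embryos Gclc had been at 2.69, 5.82, 4.31 and 1.36 FPKM and in control morulae at 0.520, 0.356, 0.386 and 0.261 FPKM. It fell without overlap by 1.60 on the log2 scale (adjusted p 0.000146), so that the mean of KD blastocysts lay between the means of control 2-cell embryos and control morulae. In KD 2-cell embryos Gclc was at 1.57, 1.58 and 1.23 FPKM, within or below the range of the control libraries, and this difference was not past the test (log2 fold change -0.73, adjusted p 0.828).

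Gclm was steadier. It was at 10.5, 8.56, 8.18 and 8.29 FPKM in control and at 13.8, 13.7 and 13.9 FPKM in KD morulae. The 3 KD libraries all lay above all 4 control libraries, with a log2 fold change of 0.70 (SE 0.14, adjusted p 0.0104), though with replicate number as a block it was 0.65 and not past the test (adjusted p 0.0611). In morulae this block took the KD effect only from the 2 pairs of libraries that share a number. In blastocysts Gclm was at 8.81, 11.7, 16.5 and 13.5 FPKM in control and at 17.4, 17.0, 24.5 and 18.4 FPKM in KD libraries. Again the groups did not overlap, and control replicate 1 was the lowest library; the log2 fold change was 0.60 (SE 0.17, adjusted p 0.0169), and without control replicate 4 the adjusted p was 0.0546. Gclm was the only member of the 37 tested that did not pass the test between control 2-cell embryos and control morulae (log2 fold change 0.08, adjusted p 0.588).

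Gss rose at both control transitions, from 1.47 ± 0.89 FPKM (SD, n = 4) in 2-cell embryos to 9.13 ± 2.37 FPKM (SD, n = 4) in morulae and 74.9 ± 36.5 FPKM (SD, n = 4) in blastocysts. Its blastocyst libraries were spread widely, at 39.3, 58.2, 124 and 78.0 FPKM in control and at 33.6, 91.9, 104 and 87.4 FPKM in KD. These ranges overlapped, and Gss was not past the test in KD (log2 fold change 0.09, adjusted p 0.861). Gsr, which reduces oxidized glutathione with NADPH, rose from 5.12 ± 1.00 FPKM (SD, n = 4) in control 2-cell embryos to 27.3 ± 8.89 FPKM (SD, n = 4) in control morulae, and its KD differences were not past the test at any stage. In blastocysts 2 of these 4 genes were higher in KD and 0 were lower, beside 16.7% and 19.8% of all genes, with a median log2 fold change of 0.54 beside 0.00. Gclc, counted here, passed the filter only through KD libraries. The count and median therefore describe these genes and test nothing about them as a group.

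Glutathione peroxidases reduce peroxides at the expense of glutathione. Gpx1, the cytosolic enzyme, and Gpx4, which acts on lipid peroxides in membranes, were the most abundant at every stage, and both rose from 2-cell embryos to morulae. Gpx1 went from 69.8 ± 3.90 FPKM (SD, n = 4) to 269 ± 31.9 FPKM (SD, n = 4) and on to 427 ± 32.3 FPKM (SD, n = 4) in control blastocysts, and Gpx1 was not past the test in KD at any stage. In morulae the KD libraries, at 318 to 405 FPKM, lay above the control range of 236 to 312 FPKM (log2 fold change 0.54, adjusted p 0.0547 in limma). In blastocysts they lay below it, at 293 to 380 FPKM beside 396 to 461 FPKM in control. Gpx4 had 402 ± 30.8 FPKM (SD, n = 4) in control morulae and 483 ± 54.0 FPKM (SD, n = 4) in control blastocysts, which did not differ past the test. Gpx4 shares 55.3% of its 75-base runs with the pseudogene Gpx4-ps2, so its own level is uncertain.

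Gpx2, the form best known from the gut epithelium, was listed at 0 or up to 0.177 FPKM in the 2-cell libraries. In morulae it was at 5.25, 4.92, 6.36 and 5.05 FPKM in control and at 13.4, 10.9 and 20.4 FPKM in KD libraries. All KD libraries lay above the control range, with KD replicate 6 the highest, and the log2 fold change was 1.38 (SE 0.22, adjusted p 0.0055). Gpx2 rose further to 27.5, 35.0, 41.4 and 59.9 FPKM in control blastocysts, where the KD libraries at 45.8, 53.1, 56.7 and 42.1 FPKM lay inside the control range. The KD morula level was therefore between the control levels of the morula and the blastocyst, and in blastocysts Gpx2 was not past the test (log2 fold change 0.32, adjusted p 0.236).

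Gpx7, a peroxidase of the endoplasmic reticulum, had 8.96, 5.79, 7.54 and 8.60 FPKM in control 2-cell embryos, 1.84, 1.22, 1.17 and 1.62 FPKM in control morulae and 11.2, 11.1, 8.74 and 6.03 FPKM in control blastocysts. It fell and rose again. KD blastocysts had 1.83, 2.39, 1.91 and 3.79 FPKM, all below the lowest control blastocyst library, and the log2 fold change was -1.55 (SE 0.24, adjusted p 0.000548). In KD morulae it was at 0.487, 0.901 and 0.726 FPKM, also below each control library, but this was not past the test (log2 fold change -0.46, adjusted p 0.0888).

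Gpx5, known from the epididymis, was at 1.69, 2.84, 1.29 and 1.94 FPKM in control and at 8.96, 7.19, 4.38 and 4.03 FPKM in KD blastocysts. The groups did not overlap, and the log2 fold change was 1.25 (SE 0.27, adjusted p 0.0035). Gpx3, the secreted plasma form, and Gpx6 were highest at the 2-cell stage. Gpx3 was at 13.2, 9.31, 20.8 and 21.4 FPKM in control 2-cell embryos, at 0.0831 to 0.523 FPKM in control morulae and at 1.35 to 5.12 FPKM in control blastocysts. It fell by 3.64 on the log2 scale (adjusted p 2.42e-08) and then rose by 1.56 (adjusted p 0.000178). In KD blastocysts Gpx3 was at 11.8, 4.77, 4.58 and 4.46 FPKM, where replicate 1 stood apart, the other libraries lay within the control range and the difference was not past the test (log2 fold change 0.81, adjusted p 0.0749). Gpx6 fell from between 2.26 and 5.30 FPKM in control 2-cell embryos to at most 0.0903 FPKM in control morulae (log2 fold change -2.05, adjusted p 2.94e-06) and stayed under 1 FPKM in each blastocyst library.

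Glutathione S-transferases were the largest family, with 20 members. In control embryos 7 of 10 tested rose and 3 fell from the 2-cell stage to the morula, beside 43.0% and 40.3% of all genes, and 11 of 14 rose and 0 fell from the morula to the blastocyst, beside 27.6% and 28.8%. A mean of at least 1 FPKM was reached by 7 of the 20 in control morulae and by 14 in control blastocysts. Several thus passed the filter only through the stage where they are high, and these stage counts test nothing about the family. In KD blastocysts 7 of 14 were lower and 1 was higher, beside 19.8% and 16.7% of all genes, with a median log2 fold change of -0.56 beside 0.00 for all genes. At the 2-cell stage Gstm5 alone made up 56.0% of the family sum in control embryos. It was at 73.8, 88.8, 36.5 and 39.0 FPKM in control and at 79.9, 62.1 and 40.4 FPKM in KD 2-cell embryos. These overlapped, and replicates 1 and 2 were higher than replicates 4 and 5. In control morulae Gstm5 was at 0.113, 0.528, 0.0875 and 0.287 FPKM, a fall of 5.47 on the log2 scale (SE 0.31, adjusted p 1.2e-08), and it stayed under 1 FPKM afterwards.

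The 7 mu class genes lie together on chromosome 3 between Gstm5 and Gstm4, chr3:107895821-108044894 in GRCm38, a span of 149 kb. Gstm2 was at 0.490, 0.440, 0.857 and 0.603 FPKM in control morulae, at 16.8, 18.1, 9.43 and 8.62 FPKM in control blastocysts and at 1.34, 2.49, 1.82 and 0.814 FPKM in KD blastocysts. It rose by 3.02 on the log2 scale (SE 0.25, adjusted p 1.92e-06) in control embryos, and KD blastocysts lay below every control blastocyst library (log2 fold change -2.41, SE 0.29, adjusted p 9.4e-05). In bulk samples such as these, fewer cells of a type and less RNA per cell cannot be told apart. The trophectoderm markers had sums in the same comparison of 990 to 1477 FPKM in control and 584 to 784 FPKM in KD blastocysts. Of 7 markers, 2 were lower (Krt18 and Elf5) and 1 was higher (Tfap2c), beside 19.8% and 16.7% of all genes. Both lower markers were DEGs, beside 7.69% of all genes. The median log2 fold change of the markers was -0.48, beside 0.00 for all genes, with 5 negative and 2 positive. None was listed at 0 throughout, and their part in these results was not tested.

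Gstm1 was at 5.40, 4.33, 5.44 and 4.90 FPKM in control and at 0.760, 2.36, 2.14 and 1.86 FPKM in KD blastocysts. Each KD library lay below the control range, KD replicate 1 was the lowest, and the log2 fold change was -1.15 (SE 0.21, adjusted p 0.00148). Gstm4 was at 5.16, 5.69, 6.67 and 5.85 FPKM in control and at 1.09, 2.41, 2.35 and 2.14 FPKM in KD blastocysts (log2 fold change -1.20, SE 0.18, adjusted p 0.000432). The same gene was at 1.38, 0.927, 1.15 and 1.19 FPKM in control and at 0.0291, 0.122 and 0.208 FPKM in KD morulae, without overlap (log2 fold change -0.90, SE 0.14, adjusted p 0.00565). Txnl4b kept its morula call in all 12 alternative fits. Gstm4 kept its own in the 9 that tested it, among them that without the filter (adjusted p 0.0336), but it passed the filter only through control morula replicates 1, 7 and 8 and was not tested when 1 of these was left out. Gstm6 was at 4.63, 4.74, 5.28 and 5.35 FPKM in control and at 1.35, 2.28, 1.93 and 3.19 FPKM in KD blastocysts, again without overlap (log2 fold change -0.93, adjusted p 0.00271). Gstm7 was at 3.23, 3.11, 2.84 and 3.02 FPKM in control and at 1.56, 2.60, 1.44 and 1.69 FPKM in KD blastocysts. These did not overlap either, but the small fold change (-0.53, adjusted p 0.0416) was no longer past the test without control replicate 1, 4 or 6 or KD replicate 1, 5 or 6, with adjusted p between 0.0727 and 0.0996. From control morulae to control blastocysts the log2 fold change was 2.09 for Gstm1, 1.59 for Gstm4, 1.94 for Gstm6 and 1.15 for Gstm7, all past the test. The remaining neighbour, Gstm3, was under 1 FPKM in every library.

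Of the alpha class, Gsta4, which acts on the lipid peroxidation product 4-hydroxynonenal, was the most abundant. It was at 14.8, 14.5, 19.6 and 20.0 FPKM in control morulae, at 387, 269, 223 and 229 FPKM in control blastocysts and at 57.7, 93.2, 86.7 and 80.0 FPKM in KD blastocysts. The rise in control embryos was 3.82 on the log2 scale (SE 0.24, adjusted p 2.07e-07), and each KD blastocyst library lay above the morula range and below the control blastocyst range (log2 fold change -1.77, SE 0.23, adjusted p 0.000168). In morulae, with KD libraries at 13.5, 11.8 and 10.7 FPKM below the control range, the difference was not past the test (log2 fold change -0.36, adjusted p 0.224). Gsta2 was at 2.24, 1.09, 1.82 and 1.41 FPKM in control and at 5.14, 3.59 and 2.76 FPKM in KD morulae. KD and control libraries were apart (log2 fold change 0.95, adjusted p 0.0132), but without KD replicate 1, the highest library, the adjusted p was 0.0571. Gsta2 shares 31.2% of its 75-base runs with Gm10639 and 30.5% with Gsta1, and the summed FPKM of Gsta1, Gsta2, Gm3776 and Gm10639 overlapped between control morulae (15.4 to 21.1) and KD morulae (18.8 to 23.7). Gsta1, which shares 76.2% of its runs with Gm3776, rose to between 5.86 and 7.87 FPKM in control morulae, and Gsta3 rose to between 1.91 and 2.49 FPKM in control blastocysts. Gsta1 and Gsta3 were not past the test in KD.

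The pi class genes Gstp1 and Gstp2 lie side by side and share 57.7% and 59.6% of their 75-base runs with each other, so their separate levels are uncertain. In blastocysts Gstp1 was at 269, 347, 261 and 305 FPKM in control and at 117, 158, 162 and 175 FPKM in KD libraries. The groups did not overlap, and the log2 fold change was -0.94 (SE 0.17, adjusted p 0.0011). In morulae Gstp1 was at 71.0, 99.5, 87.9 and 110 FPKM in control and at 59.7, 38.8 and 49.6 FPKM in KD libraries. These did not overlap either (log2 fold change -0.77, adjusted p 0.0438), yet the call was lost without any 1 of the libraries other than control replicate 1, namely control replicates 2, 7 and 8 and KD replicates 1, 2 and 6, with adjusted p between 0.0718 and 0.177. Gstp2 was at 58.2, 71.2, 48.3 and 78.2 FPKM in control and at 34.5, 25.6 and 32.2 FPKM in KD morulae, also apart (log2 fold change -0.90, adjusted p 0.0198), and the adjusted p was between 0.0575 and 0.0928 without KD replicate 1 or KD replicate 2. In KD blastocysts Gstp2 was at 76.4, 180, 208 and 175 FPKM against 245, 241, 175 and 264 FPKM in control. These overlapped, and the difference was not past the test (adjusted p 0.101). Summed with the pseudogene Gstp-ps, the pair had 138 to 204 FPKM in control and 67.4 to 102 FPKM in KD morulae, and 475 to 642 FPKM in control and 217 to 404 FPKM in KD blastocysts, with no overlap at either stage. Gstp3, the low neighbour, fell and then rose in control embryos (log2 fold changes -0.86 and 0.76), had 0.924 to 1.58 FPKM in KD and 0.206 to 0.637 FPKM in control morulae, where it was not tested, and was not past the test in KD blastocysts.

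Gsto1, which reduces dehydroascorbate, was at 5.26, 13.5, 7.47 and 9.09 FPKM in control 2-cell embryos and at 549, 320, 403 and 609 FPKM in control morulae. Its rise was 5.59 on the log2 scale (SE 0.27, adjusted p 3.8e-09), the largest of any member with a pseudocount of 1, while with 0.1 that of Gsta1 was larger (5.94 beside 5.75). In blastocysts it was at 411, 649, 370 and 579 FPKM in control and at 777, 1083, 591 and 881 FPKM in KD libraries. These overlapped, since KD replicate 5 lay below control replicate 4, and the call (log2 fold change 0.74, adjusted p 0.0344) was lost without control replicate 1 or 5 or KD replicate 1, 4 or 6, with adjusted p between 0.0689 and 0.102. In morulae Gsto1 was at 756, 495 and 875 FPKM in KD, which overlapped the control libraries (log2 fold change 0.72, adjusted p 0.0872; 0.0116 with replicate number as a block). Its neighbour Gsto2 went the other way, from between 1.34 and 2.75 FPKM in control 2-cell embryos to at most 0.179 FPKM in control morulae (log2 fold change -1.40, adjusted p 5.98e-06). Of the theta class only Gstt2 was tested. It rose to 1.85, 1.75, 2.03 and 1.13 FPKM in control blastocysts, and in KD blastocysts, at 0.762, 1.31, 0.894 and 0.716 FPKM, the difference just missed the threshold (log2 fold change -0.48, adjusted p 0.0509).

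**Figure D2:**
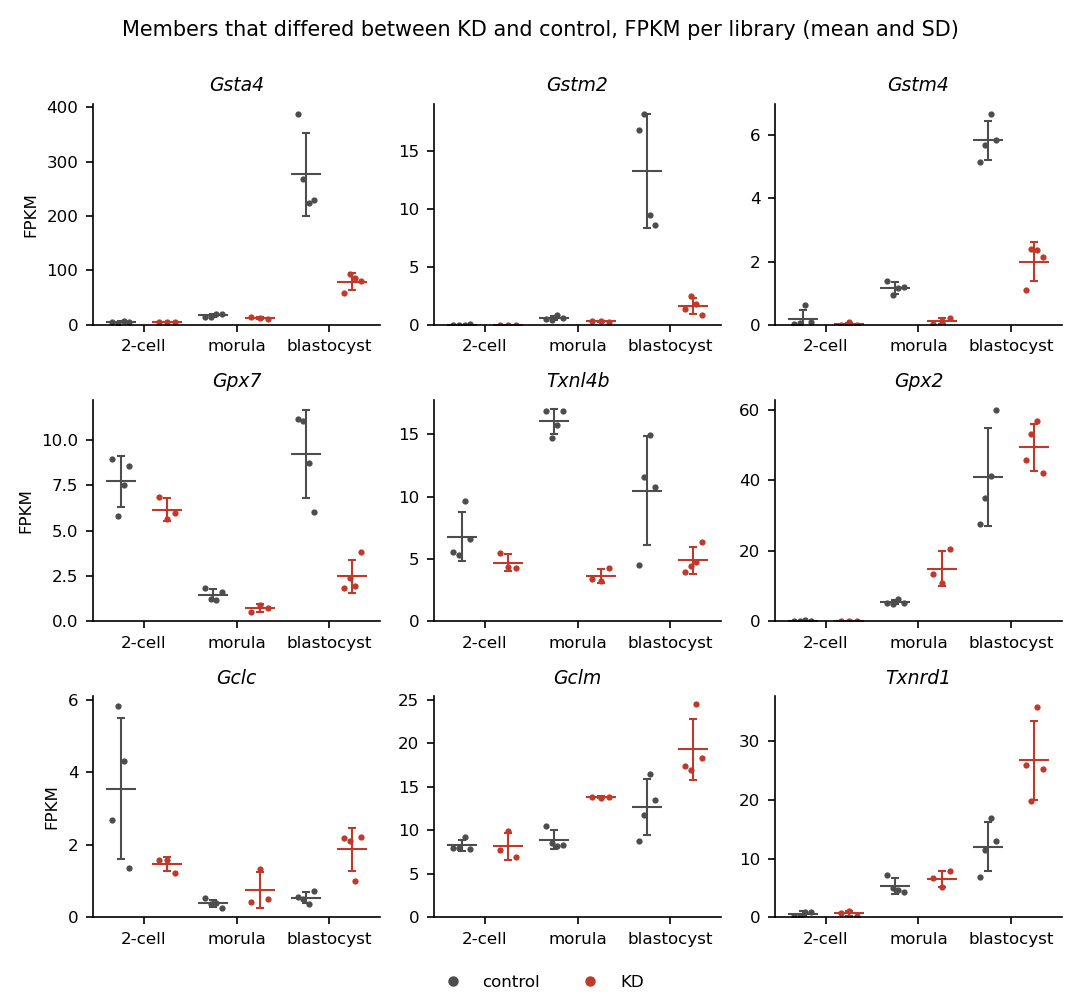
FPKM in each library of 9 members that differed between KD and control at the morula or the blastocyst stage, with the mean and SD of each group. Gsta4 had 223 to 387 FPKM in control and 57.7 to 93.2 FPKM in KD blastocysts, and Txnl4b had 14.7 to 16.9 FPKM in control and 3.24 to 4.26 FPKM in KD morulae.

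Peroxiredoxins reduce hydrogen peroxide through a reactive cysteine, and Prdx1 and Prdx2 are the main cytosolic forms. Prdx2 was at 552, 450, 375 and 365 FPKM in control 2-cell embryos, at 37.2, 43.2, 51.4 and 41.2 FPKM in control morulae and at 130, 128, 115 and 107 FPKM in control blastocysts. It fell by 3.30 on the log2 scale (SE 0.22, adjusted p 3.81e-08) and then rose by 1.37 (SE 0.17, adjusted p 3.84e-05). KD morulae, at 39.7, 43.0 and 43.9 FPKM, lay within the control range (log2 fold change 0.10, adjusted p 0.738). KD blastocysts had 42.2, 40.3, 37.7 and 43.1 FPKM, all within the range of the control morulae and below each control blastocyst library (log2 fold change -1.52, SE 0.17, adjusted p 5.12e-05).

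Prdx1 was at 350, 261, 318 and 272 FPKM in control morulae, at 1368, 1088, 1110 and 929 FPKM in control blastocysts and at 562, 701, 541 and 849 FPKM in KD blastocysts. Its rise of 1.81 on the log2 scale (SE 0.17, adjusted p 5.07e-06) made it the most abundant member in control blastocysts, with 61.5% of the family sum. The KD blastocyst libraries lay between both control ranges, and the log2 fold change was -0.76 (SE 0.22, adjusted p 0.0158), with an adjusted p of 0.074 when genes were not filtered. Prdx6, which also acts on phospholipid peroxides, was at 368, 312, 250 and 276 FPKM in control morulae, level with Prdx1 within the spread, and fell to 131, 208, 177 and 225 FPKM in control blastocysts (log2 fold change -0.80, SE 0.16, adjusted p 0.00127). KD blastocysts had 311, 330, 293 and 389 FPKM, above each control blastocyst library (log2 fold change 0.86, SE 0.18, adjusted p 0.00318).

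Prdx4, the peroxiredoxin of the endoplasmic reticulum, was at 221, 159, 201 and 175 FPKM in control and at 141, 138, 126 and 118 FPKM in KD blastocysts. The groups did not overlap, but the call (log2 fold change -0.52, adjusted p 0.0432) was lost without control replicate 1, 5 or 6 or KD replicate 5 or 6, with adjusted p between 0.0593 and 0.120. In control embryos it had fallen from between 114 and 144 FPKM in 2-cell embryos to between 78.4 and 103 FPKM in morulae (adjusted p 0.00874). Prdx3, the mitochondrial form, rose from 11.1 ± 4.42 FPKM (SD, n = 4) in control 2-cell embryos to 161 ± 18.9 FPKM (SD, n = 4) in control morulae (log2 fold change 3.81, adjusted p 2.31e-08) and had 153 ± 6.70 FPKM (SD, n = 4) in control blastocysts. Prdx5, found in mitochondria, peroxisomes and the cytosol, rose from 32.7 ± 3.71 FPKM (SD, n = 4) to 68.2 ± 13.6 FPKM (SD, n = 4) in control morulae, and 19.1% of its exon bases overlap Trmt112 on the other strand, so that its level is uncertain. Prdx3 and Prdx5 were not past the test in KD. In KD blastocysts 3 of 6 tested peroxiredoxins were lower and 1 was higher, beside 19.8% and 16.7% of all genes, and Prdx1 made up 48.4% of the family sum.

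**Figure D3:**
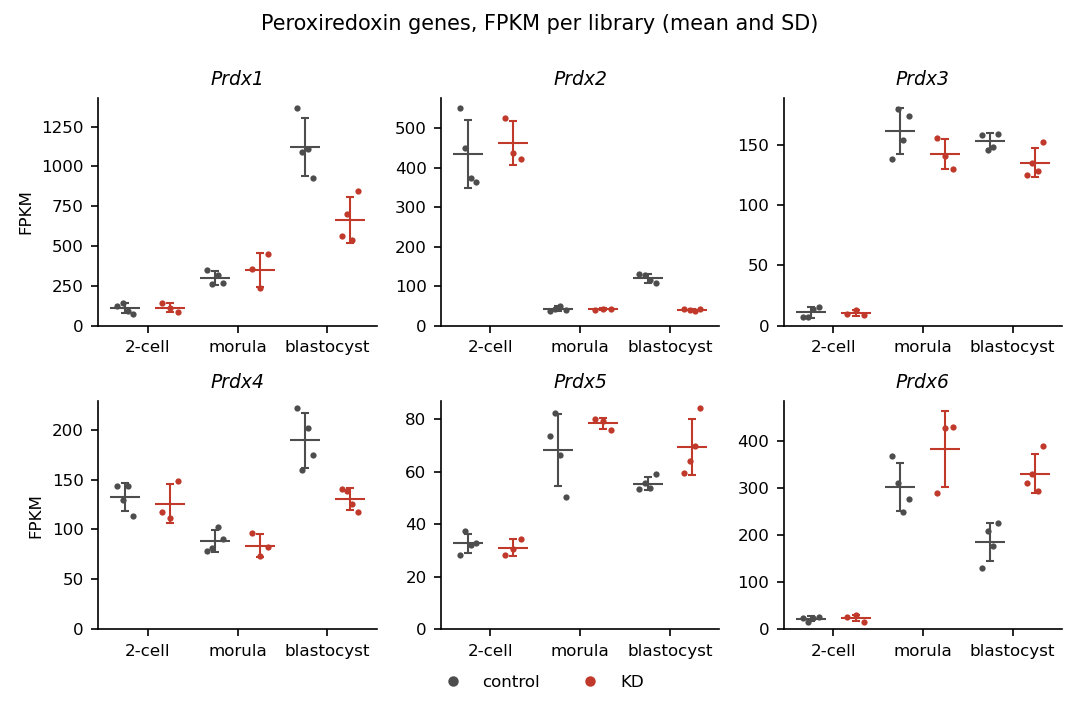
FPKM of the 6 tested peroxiredoxin genes in each library by stage, for control and KD, with the mean and SD of each group. Prdx2 was at 365 to 552 FPKM in control 2-cell embryos, and its KD blastocyst libraries (37.7 to 43.1 FPKM) lay within the control morula range (37.2 to 51.4 FPKM).

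Thioredoxins hand electrons to peroxiredoxins and other proteins, and thioredoxin reductases, which are selenoproteins, recharge them with NADPH. All 7 tested genes of the family as defined by symbol, which includes the spliceosome genes Txnl4a and Txnl4b, rose from control 2-cell embryos to control morulae. Over all genes 43.0% rose. A mean of at least 1 FPKM was reached by 5 genes of the family in control 2-cell embryos and by 7 in control morulae, so this count is a description only. Txn1, the cytosolic thioredoxin, was at 4.06, 3.10, 4.10 and 4.53 FPKM in control 2-cell embryos, at 138, 112, 143 and 133 FPKM in control morulae and at 759, 544, 544 and 702 FPKM in control blastocysts. It rose at both steps, by 4.73 (SE 0.16, adjusted p 2.14e-10) and 2.17 (SE 0.18, adjusted p 1.91e-06) on the log2 scale. KD blastocysts had 423, 558, 402 and 530 FPKM, which overlapped the control range, and the difference was not past the test (log2 fold change -0.40, adjusted p 0.154). Txn2, the mitochondrial thioredoxin, had 99.3 FPKM in KD morula replicate 1 beside 31.2 and 36.0 FPKM in the other KD morulae. It was not past the test in KD at any stage, though with replicate number as a block it was in morulae (0.68, adjusted p 0.0272). This block took the morula KD effect only from the 2 pairs of libraries that share a number. KD was higher in pair 1 (99.3 beside 33.6 FPKM) and lower in pair 2 (31.2 beside 44.8 FPKM), so the call rests on pairs of opposite sign.

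Txnrd1, the cytosolic reductase, was at 6.92, 11.4, 16.8 and 13.0 FPKM in control and at 25.9, 19.9, 35.9 and 25.2 FPKM in KD blastocysts. All KD libraries lay above all control libraries, of which replicate 1 was the lowest, and the log2 fold change was 1.12 (SE 0.21, adjusted p 0.00171). In morulae it was at 4.33 to 7.25 FPKM in control and at 5.13 to 7.82 FPKM in KD libraries, which overlapped (adjusted p 0.194). Txnrd2, the mitochondrial reductase, rose from at most 0.350 FPKM in control 2-cell embryos to 8.04, 7.29, 2.50 and 3.69 FPKM in control morulae. It was not past the test in KD, except in morulae with replicate number as a block (-0.71, adjusted p 0.0497). That value came from the 2 pairs that share a number, while the fit over all morula libraries gave -0.23 (adjusted p 0.650). Txnl1, which binds the proteasome, rose from 10.8 ± 3.80 FPKM (SD, n = 4) in control 2-cell embryos to 58.1 ± 4.52 FPKM (SD, n = 4) in control morulae and was not past the test in KD.

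Of the spliceosome proteins, Txnl4b was at 16.8, 14.7, 15.7 and 16.9 FPKM in control and at 3.35, 3.24 and 4.26 FPKM in KD morulae. The groups lay far apart, and the log2 fold change of -1.78 (SE 0.16, adjusted p 0.000408) was the largest of any member in morulae with a pseudocount of 1, while with 0.1 that of Gstm4 was larger (-2.49). In blastocysts it was at 4.47, 11.6, 15.0 and 10.8 FPKM in control and at 3.96, 4.41, 4.72 and 6.38 FPKM in KD libraries. Here control replicate 1 lay within the KD range, so the groups overlapped, and the call (log2 fold change -0.87, adjusted p 0.0209) was lost without control replicate 4, 5 or 6 or KD replicate 1 or 5, with adjusted p between 0.0501 and 0.0567. Its fall from control morulae to control blastocysts (log2 fold change -0.76, adjusted p 0.02) was lost without control morula replicate 8 (adjusted p 0.05004), with FPKM as deposited (0.0586) and without the filter (0.081). Txnl4a was at 32.7, 32.0, 34.4 and 48.6 FPKM in control and at 66.7, 50.7, 69.9 and 63.8 FPKM in KD blastocysts. These did not overlap (log2 fold change 0.77, SE 0.17, adjusted p 0.00473), and 10.1% of the exon bases of Txnl4a overlap Gm16286. In morulae Txnl4a was past the test only with replicate number as a block, from the 2 pairs that share a number (0.61, adjusted p 0.0481). Its fall from control morulae, at 56.2, 42.6, 73.8 and 41.2 FPKM, to control blastocysts (log2 fold change -0.59, adjusted p 0.0259) overlapped between groups and was lost without morula replicate 7 or blastocyst replicate 4 or 5, with adjusted p between 0.0652 and 0.0808, and also with FPKM as deposited (0.0573) and without the filter (0.0815).

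Sod1, the cytosolic dismutase, and Sod2, the mitochondrial dismutase, both rose at each control step. Sod1 had 150 ± 7.57 FPKM (SD, n = 4) in control 2-cell embryos, 252 ± 28.9 FPKM (SD, n = 4) in morulae and 504 ± 98.6 FPKM (SD, n = 4) in blastocysts. In KD morulae Sod1 was at 338, 295 and 353 FPKM beside 239, 244, 295 and 231 FPKM in control, where the ranges touched at 295 FPKM and the difference just missed the threshold (log2 fold change 0.51, adjusted p 0.0538). Sod2 was at 43.9, 58.0, 62.3 and 55.3 FPKM in control morulae, at 194, 270, 284 and 252 FPKM in control blastocysts and at 172, 136, 187 and 218 FPKM in KD blastocysts. The blastocyst groups overlapped, and the call (log2 fold change -0.48, adjusted p 0.0367) was lost without control replicate 4, 5 or 6 or KD replicate 1, 4 or 5, with adjusted p between 0.0578 and 0.101. Cat, which breaks hydrogen peroxide down in peroxisomes, was at 0.283, 0.0212, 0.800 and 0.476 FPKM in control 2-cell embryos and at 15.6, 13.8, 13.3 and 14.4 FPKM in control morulae. It rose by 3.46 on the log2 scale (adjusted p 5.54e-09) and rose again to 17.3, 28.3, 36.0 and 28.7 FPKM in control blastocysts, and KD libraries overlapped the control range in blastocysts (log2 fold change 0.02, adjusted p 0.939).

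Whether the KD effect differed between blastocysts and morulae was tested directly over the 15 libraries of both stages. Of 40 tested members, 1 had a higher KD effect in blastocysts (5.43% of 12727 genes) and 11 had a lower one (6.32% of genes). The median difference was -0.24 for the members and -0.01 for all genes, and with FPKM as deposited the median of all genes was 0.11. Lower effects in blastocysts, with a pseudocount of 1, were largest for Gstm2 (difference -2.13, SE 0.36, adjusted p 0.00125), Prdx2 (-1.66, SE 0.23, adjusted p 0.000336), Gstm1 (-1.48, SE 0.29, adjusted p 0.00401) and Gsta4 (-1.45, SE 0.32, adjusted p 0.00775). These 4 calls and that of Gsta2 (-1.09, adjusted p 0.0129) held without each library in turn. Gstm1, Gstm2 and Gstm6 were at most at 1.10 FPKM in any morula library and were not tested in morulae, so their differences largely restate the blastocyst change; with a pseudocount of 0.1 the difference was -2.42 for Gstm1 (adjusted p 0.02) and -2.28 for Gstm2 (adjusted p 0.0106). Gsta2 and Gpx2 (-1.10, adjusted p 0.0277) were higher in KD morulae and not past the test in KD blastocysts. The higher effect was that of Gpx5 (1.45, SE 0.37, adjusted p 0.0175). For Gclc, Txnrd1, Prdx6 and Txnl4b the difference between stages was not past the test (adjusted p 0.267, 0.126, 0.399 and 0.0885).

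The other 7 differences kept their direction in every alternative fit but lay near the threshold, and the count of 12 fell to 7 without KD morula replicate 2 or without KD morula replicate 6. Over all genes the 1495 calls fell to 962 without KD morula replicate 1. Gpx5 lost its call without KD morula replicate 1 or 2 (adjusted p 0.0503 to 0.0545), Gstm6 without KD morula replicate 2 (0.0686) and Gpx2 without control morula replicate 1, KD morula replicate 6 or KD blastocyst replicate 6 (0.0506 to 0.0789). Gpx1 (-0.85, adjusted p 0.0315) lost it without control morula replicate 1 or 8, KD morula replicate 2 or 6, or control blastocyst replicate 1 or 4 (0.0519 to 0.0884). Gpx7 (-1.10, adjusted p 0.0309) lost it without control morula replicate 2 or 7, KD morula replicate 2 or 6, control blastocyst replicate 1 or 4, or KD blastocyst replicate 1 or 5 (0.0536 to 0.0833). Prdx1 (-1.11, adjusted p 0.0301) lost it without control morula replicate 2, KD morula replicate 1 or 6, control blastocyst replicate 1, or KD blastocyst replicate 1 or 5 (0.0531 to 0.0884). Sod2 (-0.77, adjusted p 0.0452) lost it without 11 of the 15 libraries, all but control morula replicates 7 and 8, control blastocyst replicate 1 and KD blastocyst replicate 6 (0.0571 to 0.113). With a pseudocount of 0.1 the calls of Gstm6 (0.0761) and Gpx7 (0.124) were lost, with FPKM as deposited those of Gpx2 (0.0564) and Sod2 (0.0912), and without the filter all 7 (0.0637 to 0.108).

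Other genes of the pathway were read from 6 lists. These were chosen with earlier results of these data known, so their counts describe the listed genes and test nothing about them as a group. Of 18 tested genes among other glutathione enzymes, 10 were lower and 1 was higher in KD blastocysts, beside 19.8% and 16.7% of all genes, with a median log2 fold change of -1.14 beside 0.00. Mgst3, a microsomal transferase, was at 132, 119, 86.7 and 87.4 FPKM in control and at 19.9, 29.1, 19.2 and 17.0 FPKM in KD blastocysts, far apart (log2 fold change -2.26, adjusted p 3.74e-05). Gstk1, the mitochondrial and peroxisomal transferase (-2.02, adjusted p 0.00027), and Glrx, a glutaredoxin (-1.73, adjusted p 0.000123) were lower as well, and Ggt6, of the gamma-glutamyltransferase family, was the higher gene (1.06, adjusted p 0.00188). In control embryos 13 of these 18 genes rose and 1 fell from the morula to the blastocyst, beside 27.6% and 28.8% of all genes. This comparison shares the control blastocyst libraries, and in it Glrx rose by 5.66, Mgst3 by 4.07 and Gstk1 by 2.86 on the log2 scale. The KD effect differed between blastocysts and morulae for Glrx (difference -2.35, adjusted p 0.0015), Mgst3 (-2.07, adjusted p 0.000964) and Gstk1 (-1.99, adjusted p 0.00157), each of which held without each library in turn, and for Ggt6 (1.25, adjusted p 0.0152; 0.0525 without KD morula replicate 1). In KD morulae 4 of 15 were lower and 0 higher, beside 9.04% and 4.23% of all genes. At an unadjusted p under 0.05 in limma there were 10 of 15, beside 3352 of 10989 genes. The genes past the test included Lancl1 (-1.19, adjusted p 0.0193), Adh5 (-1.03, adjusted p 0.00789) and Esd (-0.96, adjusted p 0.0179). Without KD morula replicate 2 or 6 the adjusted p of Lancl1 was 0.075 or 0.0576, and without KD morula replicate 1 that of Esd was 0.0761, and without the filter none of these 3 was past the test (0.0519 to 0.12).

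NRF2, the product of Nfe2l2, is the transcription factor that induces Gclc, Gclm, Txnrd1 and other members under oxidative or electrophilic stress. Of 9 tested genes of its regulation and other targets, 4 were higher and 0 lower in KD blastocysts in limma, beside 16.7% and 19.8% of all genes. At an unadjusted p under 0.05 there were 4 of 9, beside 5439 of 11828 genes. The median log2 fold change was 0.43, beside 0.00 for all genes. Hmox1, heme oxygenase, was at 5.99, 12.1, 39.2 and 23.6 FPKM in control and at 43.8, 55.5, 82.4 and 59.9 FPKM in KD blastocysts. The groups did not overlap, control replicate 1 was again the lowest library, and the log2 fold change was 1.80 (adjusted p 0.00363). Hmox1 was higher also in KD morulae, at 8.91, 8.08 and 11.6 FPKM against 4.39, 3.31, 2.26 and 3.94 FPKM (log2 fold change 1.35, adjusted p 0.00442), as the only gene past the test of 8 tested there, where 4.23% of all genes were higher. Mafg (1.16, adjusted p 0.000557) and Sqstm1 (1.09, adjusted p 0.0117) were higher in KD blastocysts as well, as was Nfe2l2 itself (0.46, adjusted p 0.0334), which was named after its values were seen. The call of Sqstm1 was lost without the filter (0.0837). For Mafg the KD effect differed between stages (1.14, adjusted p 0.0399), but this was lost without any 1 of 12 of the 15 libraries, all but control morula replicate 8, control blastocyst replicate 5 and KD blastocyst replicate 1 (0.0503 to 0.107).

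Of 9 genes that supply sulfur amino acids, 3 were higher in KD blastocysts and 0 lower, namely Bhmt (1.55, adjusted p 0.000725), Cth (1.42, adjusted p 0.000189) and Slc3a2 (0.82, adjusted p 0.00225). The background shares of 16.7% and 19.8% apply to each blastocyst count past the test in this paragraph. At an unadjusted p under 0.05 in limma there were 4 of 9, beside 5439 of 11828 genes. Cth, which makes cysteine, was at 147, 147, 126 and 148 FPKM in control morulae, at 14.2, 22.4, 19.3 and 24.6 FPKM in control blastocysts and at 69.6, 47.9, 53.7 and 49.0 FPKM in KD blastocysts. KD blastocysts lay between both control ranges, and the KD effect on Cth differed between blastocysts and morulae (difference 1.53, adjusted p 0.000686), as did that on Bhmt (2.02, adjusted p 0.00425). Of 8 genes of oxidation repair and sestrins, Sesn2 (1.66, adjusted p 0.000236) and Sesn1 (0.64, adjusted p 0.0183) were higher and Nudt1 (-0.89, adjusted p 0.00694) and Msrb2 (-0.52, adjusted p 0.0498) lower. The call of Msrb2 was lost without control blastocyst replicate 1, 4 or 6 or any 1 KD blastocyst library, replicates 1, 4, 5 and 6 (adjusted p 0.0617 to 0.120), with a pseudocount of 0.1 (0.0504) and without the filter (0.106). Nudt1, which removes oxidized nucleotides, was the 1 gene of 8 lower in KD morulae too (-0.87, adjusted p 0.00575), where 9.04% of all genes were lower. Of 11 genes of NADPH supply, Me2 alone was past the test in KD blastocysts (-0.79, adjusted p 0.00614). In KD morulae 0 of 11 were past it, beside 4.23% of all genes higher and 9.04% lower. At an unadjusted p under 0.05 in limma there were 2 of 11 in KD morulae, beside 3352 of 10989 genes. The KD effect on Me1 was lower in blastocysts than in morulae (-1.28, adjusted p 0.0239), lost without KD morula replicate 1 or 6 (0.0538 to 0.0591) and with FPKM as deposited (0.0713). Of 9 genes of selenoprotein synthesis and metal cofactors, Sephs2 alone was lower in KD blastocysts (-0.54, adjusted p 0.0229), lost without control replicate 4 (0.0752) or KD replicate 6 (0.0536), and in KD morulae (-0.52, adjusted p 0.035), lost without any 1 morula library other than control replicate 1, namely control replicates 2, 7 and 8 and KD replicates 1, 2 and 6 (0.0628 to 0.143), and with replicate number as a block (0.207). The KD effect on Ccs was higher in blastocysts than in morulae (0.93, adjusted p 0.0281), lost without control morula replicate 2 or 7, KD morula replicate 6, control blastocyst replicate 6 or KD blastocyst replicate 6 (0.054 to 0.0805). Without the filter the differences between stages of Mafg, Me1 and Ccs were all lost (0.0725 to 0.126). At the 2-cell stage 0 genes of the 6 lists passed the test in limma.

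In control embryos the same lists were read beside 43.0% of genes higher and 40.3% lower from the 2-cell stage to the morula, and beside 27.6% and 28.8% from the morula to the blastocyst. Of the other glutathione enzymes 6 of 16 rose and 6 fell at the first step. NRF2 regulation and targets had 5 of 11 higher and 5 lower at the first step and 5 of 9 higher and 2 lower at the second. Of the NADPH supply genes 7 of 11 rose and 4 fell, then 5 of 11 rose and 1 fell. Sulfur amino acid supply had 6 of 9 higher and 2 lower, then 2 of 9 higher and 5 lower. Selenoprotein synthesis and metal cofactors had 5 of 9 higher and 1 lower, then 4 of 9 higher and 2 lower, and oxidation repair had 4 of 10 higher and 4 lower, then 3 of 8 higher and 0 lower.

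Markers of other stages were read in the same comparisons, beside 16.7% of all genes higher and 19.8% lower in KD blastocysts and 4.23% and 9.04% in KD morulae. In KD blastocysts both tested 2-cell markers, Gm5662 and Zfp352, were higher, and the list summed to 19.1 to 61.5 FPKM beside 5.20 to 14.1 FPKM in control blastocysts. The inner cell mass and primitive endoderm markers, led by Nanog, summed to 147 to 311 FPKM in KD and 119 to 229 FPKM in control blastocysts. There 0 of 4 were past the test, and 1 of 4 had an unadjusted p under 0.05 in limma, beside 5439 of 11828 genes. In morulae the same markers summed to 40.9 to 59.6 FPKM in KD and 140 to 174 FPKM in control libraries. Nanog was the 1 of 3 past the test there (-2.23, adjusted p 0.00647). None of these 7 markers was listed at 0 throughout a group. Their part in the results on the members was not tested.

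The promoters of members were searched for TGACNNNGC, the core letters of the antioxidant response element through which NRF2 acts, on both strands. RefSeq promoter windows of 300 bases (GRCm38.p6) matched 42 of 51 members, with 54 windows; the unmatched members were Gclc, Gsr, Gsta4, Gstt2, Prdx6, Prdx6b, Sod3, Txnl1 and Txnl4a. The letters were found in 7 of the 54 windows (13.0%) and in 4071 of 32851 windows of all genes (12.4%). The 7 windows belonged to Gclm, Gsta3, Gstm5, Gstm7, Prdx1, Sod1 and Txnrd1. Shown are Gclm (chr3:122245307-122245606, plus strand) and Txnrd1 (chr10:82858956-82859255, plus strand, 1 of its 3 windows), both higher in KD blastocysts, and Prdx1 (chr4:116685349-116685648, plus strand), which held the same letters and was lower. Capitals mark the match, which in all 3 lay on the minus strand and is therefore printed as its reverse complement.
Gclm: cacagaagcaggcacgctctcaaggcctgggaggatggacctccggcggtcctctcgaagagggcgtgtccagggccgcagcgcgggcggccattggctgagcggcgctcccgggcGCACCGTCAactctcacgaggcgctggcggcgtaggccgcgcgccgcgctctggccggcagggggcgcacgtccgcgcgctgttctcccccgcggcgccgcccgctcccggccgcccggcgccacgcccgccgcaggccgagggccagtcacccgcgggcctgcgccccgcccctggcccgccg
Txnrd1: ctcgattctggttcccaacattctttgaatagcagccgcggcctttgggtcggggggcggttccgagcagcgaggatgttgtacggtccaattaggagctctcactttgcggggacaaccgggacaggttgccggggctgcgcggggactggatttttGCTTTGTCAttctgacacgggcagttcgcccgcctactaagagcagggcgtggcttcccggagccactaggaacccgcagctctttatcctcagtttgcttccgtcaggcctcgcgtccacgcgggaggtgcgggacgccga
Prdx1: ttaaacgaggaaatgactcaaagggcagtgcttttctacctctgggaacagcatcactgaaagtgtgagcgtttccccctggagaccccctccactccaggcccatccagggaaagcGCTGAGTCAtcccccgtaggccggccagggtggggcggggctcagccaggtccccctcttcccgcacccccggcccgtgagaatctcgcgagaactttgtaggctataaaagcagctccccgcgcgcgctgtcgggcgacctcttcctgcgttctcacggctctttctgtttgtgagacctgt
A match is a run of letters and not a measured binding site.

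Several limits apply to the values above. The groups held 3 or 4 libraries each. FPKM are relative to each library's total, so a change of total RNA per embryo was not measured. RNA levels were measured, and enzyme activity, glutathione and peroxide were not. Reads from near-identical copies or overlapping genes could have been divided between them in the authors' FPKM, as for Gstp1, Gstp2, Gpx4, Gsta1 and Gsta2. Low members near 1 FPKM, such as Gclc, Gstm4 and Gsta2, lie near the lower limit of the filter.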

How the data were processed

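The authors aligned reads to mm10 with STAR and computed the deposited FPKM with StringTie 2.1.4, per the submitters' notes; their DESeq2 fits on counts were not used here. The table held 55335 genes, of which 54587 matched GENCODE vM21 (GRCm38) by the same ID version and 55154 by any version, and 0 value columns lacked a sample. Within each fit, libraries were brought to one scale by median-of-ratios factors and a pseudocount of 1 was added to FPKM. Genes reaching 1 FPKM in 3 or more of its libraries were tested with limma 3.58.1 in R 4.3.3 (lmFit, eBayes with trend), with Benjamini-Hochberg adjustment over all genes tested. The code was tested on simulated data. Genes were named by this rule: members past an adjusted p under 0.05, up to 25 per comparison by absolute log2 fold change; members with a group mean of at least 100 FPKM; in each pathway list the 3 genes with the largest change past the test per direction and comparison; and H2afz. Pathway genes that the rule gives between control stages are reported by counts, apart from those already named. Other low members are given to account for every member. The members, the 6 families, the 6 pathway lists and the markers were chosen with earlier results of these data known. Alternatives were a pseudocount of 0.1, no filter, FPKM as deposited, replicate number as a block, the range of replicate numbers as a term, and leaving out each library; for single genes leaving out each library was chosen after seeing the data. Relative depth, read from the value steps of 14085 single-exon genes, ranged from 14.9 to 28.7 in relative units. Only 10.0% to 21.0% of values in a library lay on such steps, so this range is a rough reading. Shared sequence was counted as 75-base runs of exons.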

Additional observations from a re-analysis of the deposited data

Results flagged for a closer look

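In a group of 4 libraries, a library was marked when its gap to the nearest other library, divided by the range of the group, was above the critical value of Dixon's ratio. This was so in 7 of 142 groups of 4, and chance marks about 1 in 20 groups. Gclc in KD blastocyst replicate 5 had a ratio of 0.9073, with 0.998 FPKM beside 2.11 to 2.22 FPKM in the others. Gclm in control 2-cell replicate 4 had a ratio of 0.9091, with 9.24 FPKM beside values from 7.88 to 8.004 FPKM, and in control morula replicate 1 a ratio of 0.8385, with 10.5 FPKM beside 8.18 to 8.56 FPKM. Gpx1 in control 2-cell replicate 4 had a ratio of 0.9426, with 75.7 FPKM beside 67.7 to 68.1 FPKM. Gpx3 in KD blastocyst replicate 1 had a ratio of 0.9576, with 11.8 FPKM beside 4.46 to 4.77 FPKM. Txnl4a had a ratio of 0.9379 in control 2-cell replicate 1, with 20.4 FPKM beside 9.46 to 10.1 FPKM, and of 0.8528 in control blastocyst replicate 6, with 48.6 FPKM beside 32.0 to 34.4 FPKM.

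For 12 members the KD effect differed between blastocysts and morulae by the interaction in limma. The difference in log2 fold change was -2.13 for Gstm2, -1.66 for Prdx2, -1.48 for Gstm1, -1.45 for Gsta4 and -1.11 for Prdx1. It was -1.10 for Gpx2, -1.10 for Gpx7, -1.09 for Gsta2, -1.06 for Gstm6, -0.85 for Gpx1 and -0.77 for Sod2, and 1.45 for Gpx5.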

How the results depend on the processing

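Without the filter on low FPKM the members past the test in KD morulae numbered 3 in place of 7, with 32900 genes tested and 412 called in place of 1458, and those of the difference between stages 5 in place of 12, with 988 genes called in place of 1495; the cause was not tested. In blastocysts it gave 16 members in place of 20, of which 14 were among the 20 and the others were Gpx8 and Gstm5, which the filter leaves untested, and Gstm7, Gsto1, Prdx1, Prdx4, Sod2 and Txnl4b lost their calls (adjusted p 0.0703 to 0.142); in morulae Gpx2, Gsta2, Gstp1 and Gstp2 lost theirs (0.0508 to 0.176). Leaving out each library in turn gave 0 members in 2-cell embryos, 5 to 6 in morulae, 15 to 18 in blastocysts, 35 to 36 for control morulae against 2-cell embryos, 27 to 29 for control blastocysts against morulae and 7 to 12 for the difference between stages, with 7 without KD morula replicate 2 or KD morula replicate 6. With replicate number as a block or the range of replicate numbers as a term, 0, 10 and 20 members passed in 2-cell embryos, morulae and blastocysts, and with the block 6 of the 7 morula members (not Gclm) and all 20 blastocyst members were among them. The morula members gained were Gsto1, Txn2 and Txnl4a (higher) and Txnrd2 (lower) with the block, and Gpx1, Gsto1 and Sod1 (higher) with the range term. With the block the morula KD effect came only from the 2 pairs of libraries with a shared number, and the other morula libraries did not enter it. Morula calls gained or lost with the block rest on those pairs. Libraries with the same number in KD and control correlated at 0.01 to 0.21 in 2-cell embryos and 0.09 to 0.18 in morulae. In blastocysts they correlated at -0.11 to 0.35. These were not correlations of the levels themselves, which were far higher within each group. The best control match had the same number for 3 of 3 KD libraries in 2-cell embryos, 1 of 2 in morulae and 2 of 4 in blastocysts. In 2-cell embryos KD replicates 1 and 2 matched another control library nearly as well. Libraries with the same number were treated as sharing a number only. FPKM as deposited gave 22 members in blastocysts, with Gstt2 and Txn2 lower in addition, and 10 for the difference between stages, as did a pseudocount of 0.1 for the latter. Single genes were followed where they were past the test, with H2afz in addition, so that all but H2afz could lose a call and not gain one. None of these reversed: 659 values under other settings kept their side of the threshold and 42 were weaker, and on leaving out libraries 1602 kept it, 116 were weaker and 1 was stronger (H2afz in 2-cell embryos without KD replicate 1). Tested members not past the test gained a call 10 times under other settings and 14 times on leaving out libraries, and members below the filter did so 13 times without it. The calls that never changed in the fits that tested them were 2 of 7 in morulae, 13 of 20 in blastocysts, 36 of 36 and 26 of 28 between control stages and 5 of 12 for the difference. The unknown depth limits how finely members near 1 FPKM can be read.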
